A study of Mus musculus with 12 samples.

Results

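Nr4a1, Nr4a2 and Nr4a3 are the 3 members of the Nr4a family of nuclear receptors. They were taken by name from the 16094 genes of a single-cell expression table of mouse spleen, and all 3 were present. SLE.yaa mice were compared with WT mice. The SLE.yaa group was 2 male mice of strain B6.Sle1yaa, whose background is C57BL/6 with the Sle1 lupus interval of chromosome 1 and the Yaa translocation of X-linked genes onto the Y chromosome. The WT group was 2 male mice of strain C57BL/6. The labels give both the strain and a field named chimera condition, which reads SLE.yaa or WT and set the groups here. What chimera means, and so whether the blood cells came from a donor, is not stated. No drug, transgene or Cre allele is named for either group. The deposited age, given with no unit, was 14.9 in SLE.yaa mice and 14.4 in WT mice, so age and strain cannot be told apart. Splenocytes were enriched on magnets for cells bearing CD45, which all white blood cells carry, and captured in 10x droplets, and the receptor chains of B and T cells were sequenced from the same captures. The cell types below are those the authors annotated.

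Nr4a receptors are transcription factors that act without a known natural small-molecule ligand, so that the amount of protein, and hence of transcript, largely sets their activity. Their genes are immediate early genes, switched on within minutes to hours of antigen receptor signalling in lymphocytes and of inflammatory or adhesion signals in myeloid cells. In mice Nr4a1 (Nur77) is needed for the Ly6C-low patrolling monocyte, and the 3 receptors act in regulatory T cells, in T cell tolerance and exhaustion, and in restraining B cells that meet antigen without help.

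The promoters of the 3 genes are shown because immediate early genes are classically driven through the cAMP response element, and because all 3 windows were crowded with its core. Each sequence is the 250 bases before the start given in RefSeq (GRCm38.p6), printed 5′ to 3′ on the strand of the gene. For Nr4a1 and Nr4a3 that start lies inside the annotated gene and is not its first base. Capitals mark the core TGACG or its reverse complement CGTCA, searched on both strands. The Nr4a1 window lies at chr15:101266596-101266845 on the plus strand, within the annotated gene, which spans bases 101253902 to 101274795. The Nr4a2 window lies at chr2:57124004-57124253 on the minus strand, just upstream of the gene at bases 57106830 to 57124003. The Nr4a3 window lies at chr4:48045055-48045304 on the plus strand and begins just before the gene, which spans 48045078 to 48086447. Most of this window, with all or part of each match in it, lies within the annotated gene.
Nr4a1: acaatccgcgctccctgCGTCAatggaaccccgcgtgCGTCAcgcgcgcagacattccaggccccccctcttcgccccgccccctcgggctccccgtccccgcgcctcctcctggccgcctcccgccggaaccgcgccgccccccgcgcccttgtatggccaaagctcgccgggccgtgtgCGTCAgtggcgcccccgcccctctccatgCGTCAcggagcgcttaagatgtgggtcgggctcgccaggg
Nr4a2: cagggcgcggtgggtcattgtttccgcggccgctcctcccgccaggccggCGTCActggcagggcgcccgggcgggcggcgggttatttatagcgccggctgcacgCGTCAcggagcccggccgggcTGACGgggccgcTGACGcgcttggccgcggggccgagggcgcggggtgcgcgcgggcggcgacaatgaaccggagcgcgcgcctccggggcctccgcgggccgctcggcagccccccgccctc
Nr4a3: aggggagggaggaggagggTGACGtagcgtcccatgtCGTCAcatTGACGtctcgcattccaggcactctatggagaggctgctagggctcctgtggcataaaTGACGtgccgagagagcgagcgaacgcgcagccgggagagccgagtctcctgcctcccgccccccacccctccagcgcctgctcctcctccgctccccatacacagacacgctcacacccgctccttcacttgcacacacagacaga
Each window held 4 matches to the core. Of 32851 promoter windows of the same length, 17.8% held at least 1 match and 45 (0.137%) held at least 4. The Nr4a windows were rich in G and C, at 74.4%, 80% and 63.6% for Nr4a1, Nr4a2 and Nr4a3 against a median of 52.4% over all windows, and the core itself contains CG. The full palindrome TGACGTCA (in 1.55% of all windows), the AP-1 site TGANTCA (6.75%) and the NGFI-B response element AAAGGTCA (1.34%), to which Nr4a proteins bind, had no match in these windows. A match is a description of letters and not of binding.

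The table held 22285 cells, with 4961 and 6130 in SLE.yaa 1 and SLE.yaa 2 and 5497 and 5697 in WT 1 and WT 2. A cell had a median of 4695 and 4050 UMIs in SLE.yaa mice and of 3467 and 3670 in WT mice, but the order differed by type, and in Mac and DC the WT cells were the deeper ones. Total UMIs ranged from 21793635 to 28877299 per mouse. Levels are means of depth-adjusted values per cell after scaling to 1000000 per mouse, called vpm below, and each transcript is tagged at 1 end, so length does not enter them. A total of 254 cell barcodes occurred in more than 1 mouse. Nr4a1 was found in 3390 cells, Nr4a3 in 249 and Nr4a2 in 116. Of the 12 annotated types, 9 had at least 20 cells in each mouse and could be tested. The other types, PC (plasma cells), pDC and Baso, had too few WT cells.

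Nr4a1 was the abundant member, and its level differed over 2 orders of magnitude between cell types. Cells annotated Mac stood highest, at 599 and 595 vpm in SLE.yaa mice and 411 and 359 vpm in WT mice. DC followed in SLE.yaa mice (256 and 200 vpm), while WT DC held 42.2 and 66.2 vpm. Neutrophils (PMN) held 103 and 136 vpm in SLE.yaa mice and 65.5 and 67.2 vpm in WT mice. CD4 T cells held 136 and 62.9 vpm in SLE.yaa mice and 30.4 and 34.7 vpm in WT mice. Over the 4 mice, Mac was the type set apart from its neighbour in this order, since the ranges of DC, PMN and CD4 T cells overlapped. Among SLE.yaa mice alone, DC also lay above PMN. Below these types by the 4-mouse mean came B cells (26.0 to 35.8 vpm over the 4 mice), NK cells (11.3 to 29.4), B-ISG cells (6.82 to 24.0), CD8 T cells (4.90 to 19.7) and early B cells (0 to 7.09), each overlapping the next. B cells also overlapped CD4 T cells, whose WT levels lay within the B cell range. PMN moved up to 187 and 245 vpm in SLE.yaa mice and 111 and 115 vpm in WT mice when all types were scaled together, so their place beside DC depends on the scaling.

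**Figure D1:**
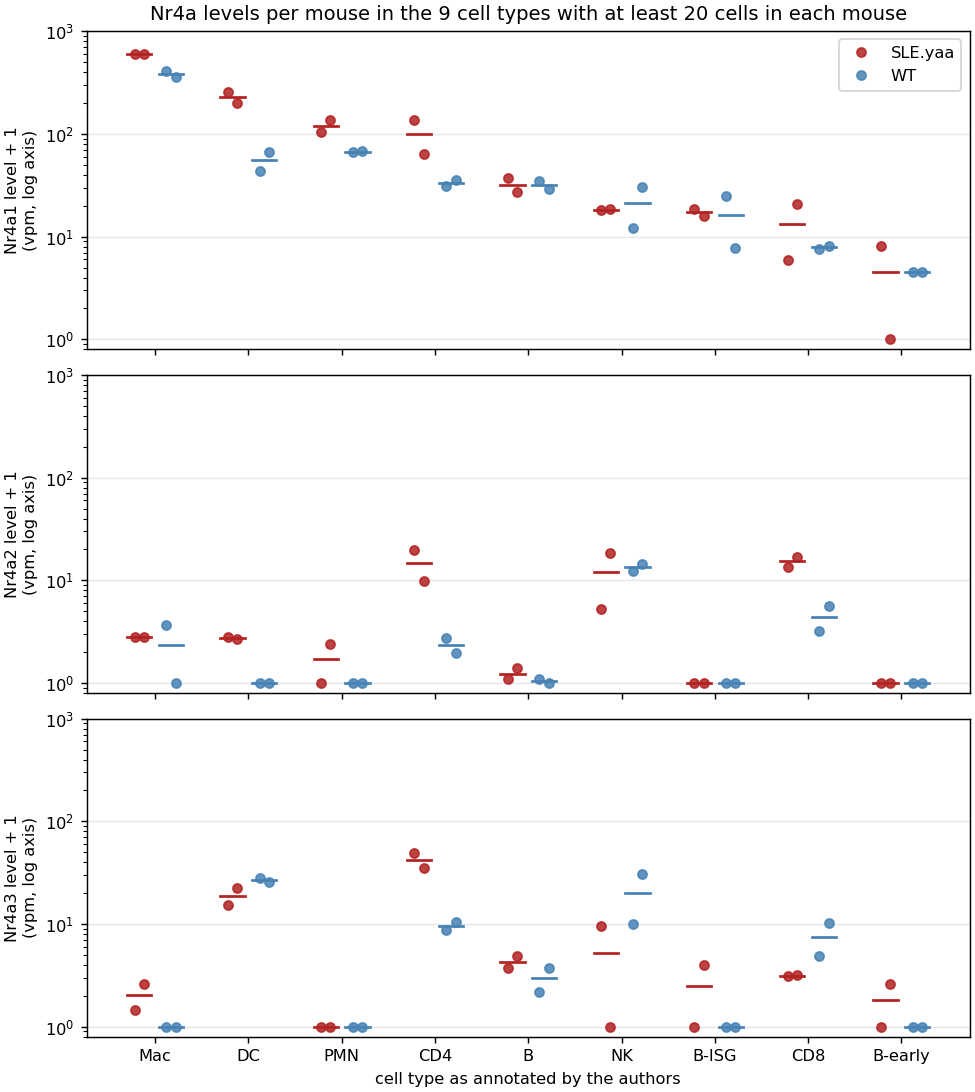
Level of each Nr4a gene (vpm plus 1, log axis) per mouse in 9 annotated cell types, ordered by the 4-mouse mean of Nr4a1. Points are mice, bars are means of 2 mice, SLE.yaa in red and WT in blue. Nr4a1 is highest in Mac in all 4 mice, at 359 vpm or more, while Nr4a2 and Nr4a3 stay under 50 vpm in each type and are highest in T cells, NK cells or DC.

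Nr4a2 and Nr4a3 had another distribution. Nr4a3 was highest in SLE.yaa CD4 T cells (48.0 and 33.9 vpm, against 7.68 and 9.46 vpm in WT CD4 T cells), followed by DC (14.4 and 21.3 vpm in SLE.yaa mice, 27.1 and 24.4 vpm in WT mice) and NK cells (8.51 and 0 vpm in SLE.yaa mice, 9.02 and 29.4 vpm in WT mice). In Mac, the cells richest in Nr4a1, Nr4a3 was at 0.451 and 1.63 vpm in SLE.yaa mice and at 0 in both WT mice, and in PMN it was at 0 in all 4 mice. By the 4-mouse mean Nr4a2 was highest in NK cells (4.25 and 17.6 vpm in SLE.yaa mice, 11.3 and 13.6 vpm in WT mice). Then came CD8 T cells (12.6 and 16.0 vpm in SLE.yaa mice, 2.20 and 4.61 vpm in WT mice) and CD4 T cells (18.8 and 8.80 vpm in SLE.yaa mice, 1.75 and 0.946 vpm in WT mice). The ranges of these types over the 4 mice overlapped. In WT mice NK cells lay above both T cell types, from 5 of 119 and 1 of 117 cells with Nr4a2. So Mac and PMN carried Nr4a1 with almost no Nr4a2 or Nr4a3, and the small amounts of Nr4a2 and Nr4a3 lay mostly in lymphocytes and DC.

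Nr4a1 in the mean over all cells was higher in SLE.yaa mice, at 110 and 166 vpm against 58.6 and 37.6 vpm in WT mice, with no overlap. The log2 change was 1.35 ± 0.24 (SE, limma adjusted p = 0.0242, n = 2 mice per group, with 7.85% of the tested genes called). Mac supplied 52.5% and 78.9% of the summed Nr4a1 values in SLE.yaa 1 and SLE.yaa 2, where they were 11.1% and 24.2% of cells. In WT 1 and WT 2 they supplied 53.1% and 31.5% and were 6.82% and 2.97% of cells. B cells supplied 16.3% and 6.43% in SLE.yaa mice and 32.2% and 44.2% in WT mice. In a mean over all cells, more cells of a rich type and more transcript per cell cannot be told apart. Without Mac, DC, PMN and plasma cells, a selection made after seeing the data, the log2 change of Nr4a1 was 0.40 (limma adjusted p = 0.234). The call was also lost with no filter on low values (adjusted p = 0.0555) and with robust variance (adjusted p = 0.0700). Nr4a2 (3.53 and 2.56 vpm in SLE.yaa mice, 0.955 and 0.923 vpm in WT mice) and Nr4a3 (8.33 and 6.27 vpm in SLE.yaa mice, 2.77 and 4.94 vpm in WT mice) were too low over all cells to enter the test.

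**Figure D2:**
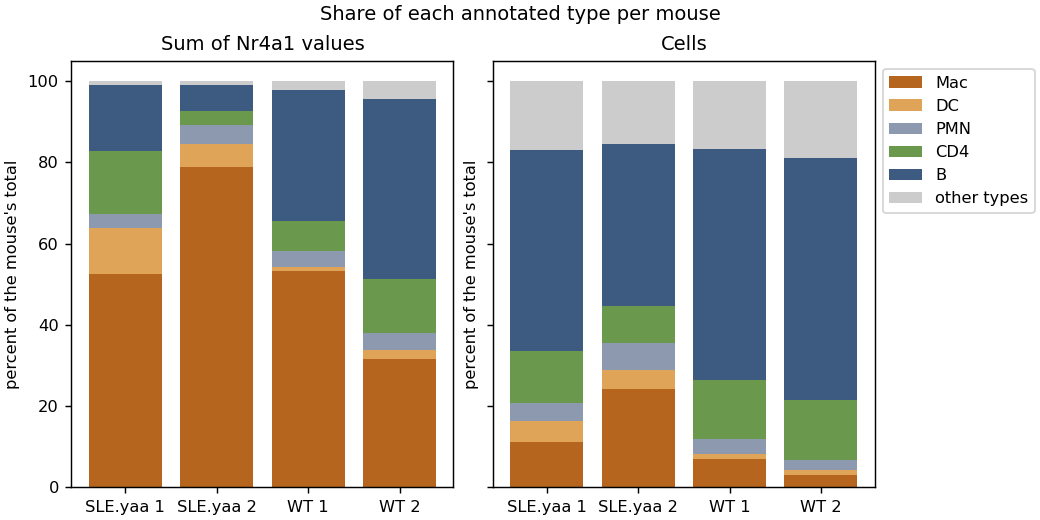
Percent of each mouse's summed depth-adjusted Nr4a1 values (left) and of its cells (right) by annotated cell type, 1 bar per mouse. In SLE.yaa 2, Mac are 24.2% of cells and 78.9% of the Nr4a1 values, and in WT 2 they are 2.97% of cells and 31.5% of the values.

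Cells annotated Mac carried the markers of monocytes and not those of tissue macrophages. The colony-stimulating factor receptor Csf1r stood at 1147 and 1080 vpm in SLE.yaa mice and 881 and 997 vpm in WT mice, while the complement gene C1qb stood at 4.78 and 14.7 vpm in SLE.yaa mice and 10.4 and 12.2 vpm in WT mice. All 5 macrophage markers together summed to 13.9 and 35.3 vpm in SLE.yaa mice and 15.9 and 22.9 vpm in WT mice, against 14002 and 12580 vpm, and 21338 and 23587 vpm, for 4 monocyte markers. Markers of other cells also differed. Plasma cell markers summed to 310 and 58.9 vpm in Mac of SLE.yaa mice and to 31.1 and 26.0 vpm in WT mice, and neutrophil markers to 254 and 508 vpm and to 147 and 234 vpm. Their part in the result below was not tested. The type is called Mac here as the authors named it.

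Nr4a1 rose in Mac of SLE.yaa mice, with levels of 599 and 595 vpm that lay above both WT mice (411 and 359 vpm). The log2 change was 0.62 ± 0.12 (SE, limma adjusted p = 0.0184, with 5.69% of the tested genes called, 3.92% as higher and 1.77% as lower). The share of Mac with any Nr4a1 was 82.0% (78.5 to 85.1, exact Clopper-Pearson 95% interval) and 77.8% (75.6 to 79.9) in SLE.yaa mice, against 67.5% (62.5 to 72.2) and 65.7% (58.0 to 72.8) in WT mice. Drawn down to a total of 2500 per cell, the shares were 69.0% and 65.9% in SLE.yaa mice and 56.2% and 54.2% in WT mice. Cells with a depth-adjusted value of 5 or more made up 14.5% and 11.8% of Mac in SLE.yaa mice and 8% and 4.73% in WT mice. Intervals cover counting error only. For background, plasma cells of SLE.yaa mice, at a median of 10022 and 10618 UMIs, held Nr4a1 in 0.882% and 0.348% of cells, and Mac had medians of 3515 and 3149 UMIs in SLE.yaa mice and 4308 and 4535 UMIs in WT mice. The call in Mac was lost without SLE.yaa 1 (adjusted p = 0.0938) or SLE.yaa 2 (adjusted p = 0.134), with no filter on low values (adjusted p = 0.0732), and among cells with 2000 to 6000 UMIs, where the log2 change was 0.39 (adjusted p = 0.163).

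Monocytes of the mouse fall along a range from Ly6C-high classical cells, which circulate and are recruited to inflamed tissue, to Ly6C-low patrolling cells, which crawl along vessel walls. Mac were divided on Ly6c2, which encodes Ly6C, into cells at 0 and cells at 1 or more. This cut gives ranges and not types, and 145 of the 2579 Mac sat at exactly 1. Cells at 0 made up 82.0% and 84.2% of Mac in SLE.yaa mice and 54.9% and 62.7% in WT mice. Nr4a1 was higher in these cells within each mouse. It stood at 655 and 628 vpm in SLE.yaa mice and at 590 and 477 vpm in WT mice in the cells at 0, against 337 and 378 vpm, and 249 and 210 vpm, in the cells at 1 or more of the same mice. The log2 change within mice was 1.23 ± 0.089 (SE, limma adjusted p = 7.55e-08, higher in 4 of 4 mice, with 28.3% of the tested genes called, 16.3% as higher and 12% as lower). Median UMI counts in the cells at 0 were 3272 and 2942 in SLE.yaa mice and 3351 and 3338.5 in WT mice. In the cells at 1 or more they were 6844 and 6758 in SLE.yaa mice and 6158 and 6806 in WT mice. Among cells of 2000 to 6000 UMIs the change was 1.02 (adjusted p = 1.41e-05). Between the groups, Nr4a1 had a log2 change of 0.27 (limma adjusted p = 0.466) in the cells at 0 and of 0.62 (adjusted p = 0.207) in those at 1 or more, and neither passed the test. Neutrophil markers in the cells at 1 or more summed to 735 and 1736 vpm in SLE.yaa mice and to 176 and 143 vpm in WT mice. Called genes were 1.11% and 0.386% of those tested in these comparisons. Without WT 1 the changes were 0.42 (adjusted p = 0.0143) and 0.75 (adjusted p = 0.0203), and without WT 2 they were 0.11 and 0.50. In both classes Nr4a1 was higher in both SLE.yaa mice than in both WT mice, although neither change passed the threshold with all 4 mice. The part of the larger share of cells with Ly6c2 at 0 in the change over all Mac was not tested.

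Genes of the patrolling programme moved in the direction of Nr4a1 in Mac. Of 13 patrolling genes tested, 8 rose and 0 fell in SLE.yaa mice (over all genes 3.92% rose and 1.77% fell), with a median log2 change of 0.63 against 0.03 over all genes tested. Cd300e and Cd300ld, which encode activating receptors of the CD300 family, rose by 1.28 and 1.17, and the enolase Eno3 rose by 1.02. Of 10 classical monocyte genes 6 fell and 1 rose, with a median of −0.86. Coagulation factor F13a1 fell by 1.66, fibronectin (Fn1) fell by 1.31, and the haptoglobin gene Hp rose by 1.54. Ccr2, the receptor that draws classical monocytes from the marrow, fell by 1.28. Within mice, the cells with Ly6c2 at 0 held higher levels of all 13 patrolling genes tested and lower levels of all 9 classical genes tested, with Ly6c2 itself not counted. Genes of the AP-1 and immediate early group, which also respond to tissue dissociation, gave 2 of 14 that rose (Klf4, 0.58, and Btg2, 0.53) and 2 that fell (Atf3, −0.92, and Fos, −0.67). Of the 14, 11 had a positive change, with a median of 0.17 against 0.03 over all genes. In the Ly6c2 comparison 8 of 13 of them were higher and 2 lower, among them Jun (1.32), Btg2 (1.13) and Fos (−1.47), and 5 of 7 heat shock genes were higher, with Hsp90aa1 at 1.18. The part of dissociation in the Nr4a1 difference was not tested.

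**Figure D3:**
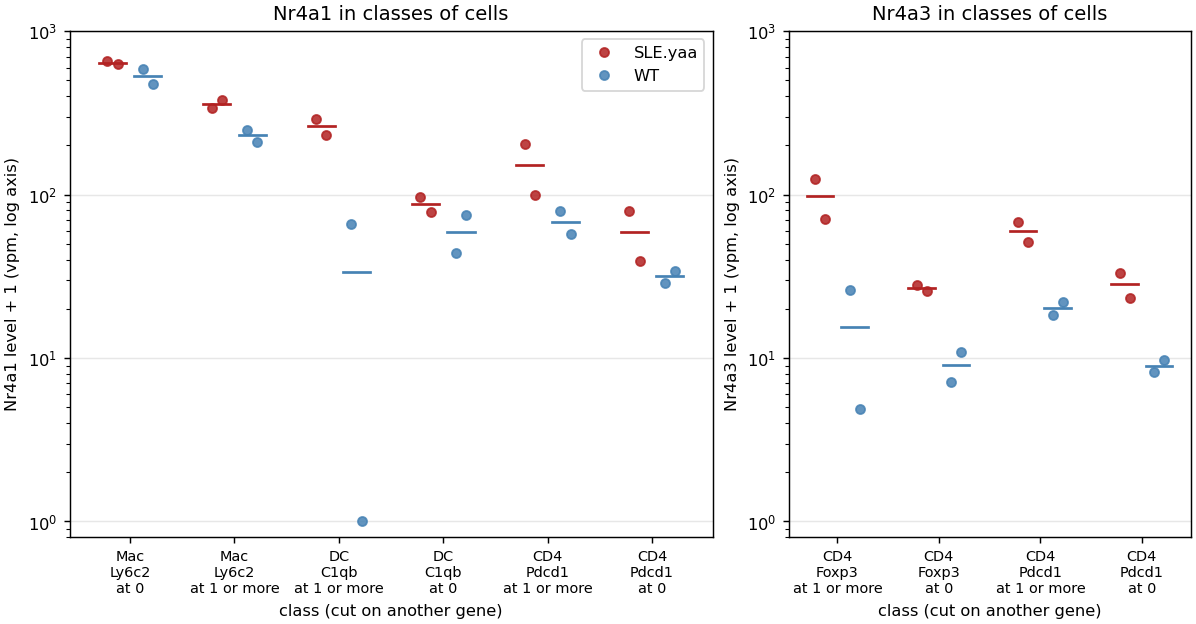
Nr4a1 (left) and Nr4a3 (right) per mouse in classes of cells cut on another gene, as vpm plus 1 on a log axis, with means of 2 mice as bars. In Mac, Nr4a1 lies at 477 vpm or more where Ly6c2 is at 0 and at 378 vpm or less where it is not. WT DC with C1qb held 4 and 8 cells, so their 2 points are single small samples scaled to the sum alone.

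Nr4a1 rose more than 3-fold in cells annotated DC, at 256 and 200 vpm in SLE.yaa mice against 42.2 and 66.2 vpm in WT mice, without overlap. The log2 change was 1.91 ± 0.24 (SE, limma adjusted p = 0.00146, with 12.1% of the tested genes called, 8.38% as higher and 3.77% as lower), and it stayed between 1.63 and 2.17 with each mouse left out. The annotation, however, held different cells in the 2 groups. Cells with the complement gene C1qb at 1 or more, a macrophage marker, were 79.2% and 73.1% of DC in SLE.yaa mice (206 and 212 cells), against 5.19% and 10.8% in WT mice (4 and 8 cells). In these SLE.yaa cells the dendritic growth factor receptor Flt3 was at 0 and 2.24 vpm and Cd209a was at 0 in both mice. Vcam1, a macrophage adhesion molecule, stood there at 1657 and 1096 vpm, and at 3799 and 4709 vpm in the few WT cells with C1qb. Levels in the cells with C1qb were scaled to their sum alone. Nr4a1 stood at 291 and 232 vpm in the cells with C1qb of SLE.yaa mice and was found in 44.2% and 46.7% of them. In the few WT cells with C1qb it stood at 65.5 and 0 vpm, from 1 of 4 and 0 of 8 cells, and was not tested. By a limit of 3 counts, 0 of 8 cells allows a share of cells with the transcript detected of up to 37.5%.

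In the DC without C1qb, Flt3 stood at 194 and 221 vpm in SLE.yaa mice and at 235 and 302 vpm in WT mice. There Nr4a1 stood at 95.7 and 77.2 vpm in SLE.yaa mice and 43.1 and 73.9 vpm in WT mice, a log2 change of 0.52 (limma adjusted p = 0.695). Leaving out WT 1 or WT 2 gave 0.20 or 0.90, with neither passing. Nr4a3 in all DC was at 14.4 and 21.3 vpm in SLE.yaa mice and 27.1 and 24.4 vpm in WT mice (log2 change −0.37, adjusted p = 0.456). In the DC without C1qb the order was the opposite, with 47.8 and 46.9 vpm in SLE.yaa mice and 29.8 and 27.2 vpm in WT mice (0.57, adjusted p = 0.695, with 0.571% of the tested genes called), and the cells with C1qb held 4.45 and 8.95 vpm in SLE.yaa mice. Among patrolling monocyte genes in all DC, 7 of 13 rose, led by the Fc receptor Fcgr4 (5.67), Cd300e (3.81) and Pou2f2 (2.36), and Pglyrp1 fell by 1.43. Red cell transcripts differed as well, with the haemoglobin gene Hbb-bs at 675 and 1299 vpm in DC of SLE.yaa mice and at 0 and 10.8 vpm in WT mice. Their part in the Nr4a1 difference was not tested.

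Both Nr4a1 and Nr4a3 rose in CD4 T cells of SLE.yaa mice. Nr4a1 stood at 136 and 62.9 vpm in SLE.yaa mice and at 30.4 and 34.7 vpm in WT mice. Its log2 change was 1.28 ± 0.23 (SE, limma adjusted p = 0.000535). SLE.yaa 1 was the highest mouse, and without it the change was 0.78 (adjusted p = 0.00426). The call was lost with robust variance (adjusted p = 0.107). Nr4a3 stood at 48.0 and 33.9 vpm in SLE.yaa mice and 7.68 and 9.46 vpm in WT mice, so it entered the test only through the SLE.yaa mice. Its log2 change was 1.44 ± 0.16 (SE, limma adjusted p = 7.72e-06), and with either of the SLE.yaa mice left out it fell below the minimum and had no value. With no filter on low values, so that its level in one group did not decide its entry, the change of 1.44 had an adjusted p of 0.00104. The change was broad in this cell type: 28.2% of all tested genes were called, 15.9% as higher and 12.3% as lower. Nr4a2, at 18.8 and 8.80 vpm in SLE.yaa mice and 1.75 and 0.946 vpm in WT mice, was below the minimum for the test, although the groups did not overlap.

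The share of CD4 T cells with Nr4a1 was 13.9% (11.3 to 16.8, exact Clopper-Pearson 95% interval) and 10.9% (8.43 to 13.8) in SLE.yaa mice and 4.27% (2.97 to 5.91) and 3.96% (2.74 to 5.51) in WT mice. Nr4a3 was found in 6.61% and 5.64% of CD4 T cells in SLE.yaa mice and in 1.88% and 1.92% in WT mice, and Nr4a2 in 3.15% and 2.73% in SLE.yaa mice and in 0.502% and 0.360% in WT mice. Drawn down to 2500, the Nr4a1 shares were 10.5% and 8.06% in SLE.yaa mice and 3.29% and 3.08% in WT mice. Median UMI counts were 4292 and 3659.5 in SLE.yaa CD4 T cells and 4003 and 4407 in WT CD4 T cells. Most CD4 T cells were thus at 0 in both groups, and a minority carried the difference. Cells with an Nr4a1 value of 5 or more were 3.94% and 1.45% of CD4 T cells in SLE.yaa mice and 0.753% and 0.600% in WT mice. The members were often found in the same cells. Pooled over the 4 mice, 53.8% of the 104 CD4 T cells with Nr4a3 also held Nr4a1. Of the 42 with Nr4a2, 47.6% did, against 7.63% of all CD4 T cells. The pool mixes groups that differ in these shares. By mouse, Nr4a1 was in 61.9% and 51.6% of the cells with Nr4a3 in SLE.yaa mice and in 40% and 50% in WT mice. Of the cells with Nr4a2 it was in 65% and 26.7% in SLE.yaa mice (20 and 15 cells) and in 50% and 33.3% in WT mice (4 and 3 cells). Cells with Nr4a3 had a median of 4972 UMIs and cells without it 4106, and the part of depth in this overlap was not tested.

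Cd4 itself marked the type, at 450 and 534 vpm in SLE.yaa mice and 293 and 291 vpm in WT mice. Transcripts of other cells differed in it as well. The 5 macrophage markers summed to 25.7 and 21.8 vpm in SLE.yaa CD4 T cells and to 1.35 and 0.316 vpm in WT CD4 T cells, and 4 monocyte markers to 49.9 and 89.8 vpm and to 31.8 and 35.4 vpm. B cells of the same mice showed the same direction for macrophage markers (12.6 and 12.2 vpm in SLE.yaa mice, 0.181 and 1.96 vpm in WT mice). There Nr4a1 was at 35.8 and 26.0 vpm in SLE.yaa mice and at 34.2 and 28.2 vpm in WT mice. The part of transcripts from other cells in the CD4 T cell changes was not tested.

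The antigen receptor genes and the T cell dysfunction genes were higher alongside the receptors in CD4 T cells. Over all genes 15.9% rose and 12.3% fell in this type, against which the counts below are to be read. Of 16 antigen receptor genes 12 rose and 1 fell, with a median log2 change of 1.39 against −0.01 over all genes tested. The transcription factor Bhlhe40 rose by 3.81, and the costimulatory receptors Tnfrsf4 (OX40) and Tnfrsf9 (4-1BB) rose by 2.97 and 2.88, while Myc fell by 0.77. Of 11 dysfunction and tolerance genes tested 10 rose and 0 fell, with a median of 2.28. The inhibitory receptors Lag3, Tigit and Pdcd1 (PD-1) led them, at 5.17, 4.11 and 3.67. The AP-1 and immediate early genes moved less, with 6 of 10 higher and a median of 0.42, led by Dusp1 (1.57) and Junb (1.41). Heat shock genes gave 0 higher and 2 lower of 5 (Dnajb1 fell by 1.07 and Hspe1 fell by 0.54). Of 10 partners and upstream factors tested 2 rose and 1 fell, near the share over all genes. Nfatc1, the calcium-activated factor, rose by 1.83, Hdac7, a deacetylase that Mef2 recruits, rose by 0.78, and Mef2c fell by 0.60. The patrolling monocyte list moved as well: of 5 genes tested in CD4 T cells 5 rose and 0 fell, with a median of 1.59. Of 4 classical monocyte genes tested 1 rose and 1 fell, with a median of 0.22.

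**Figure D4:**
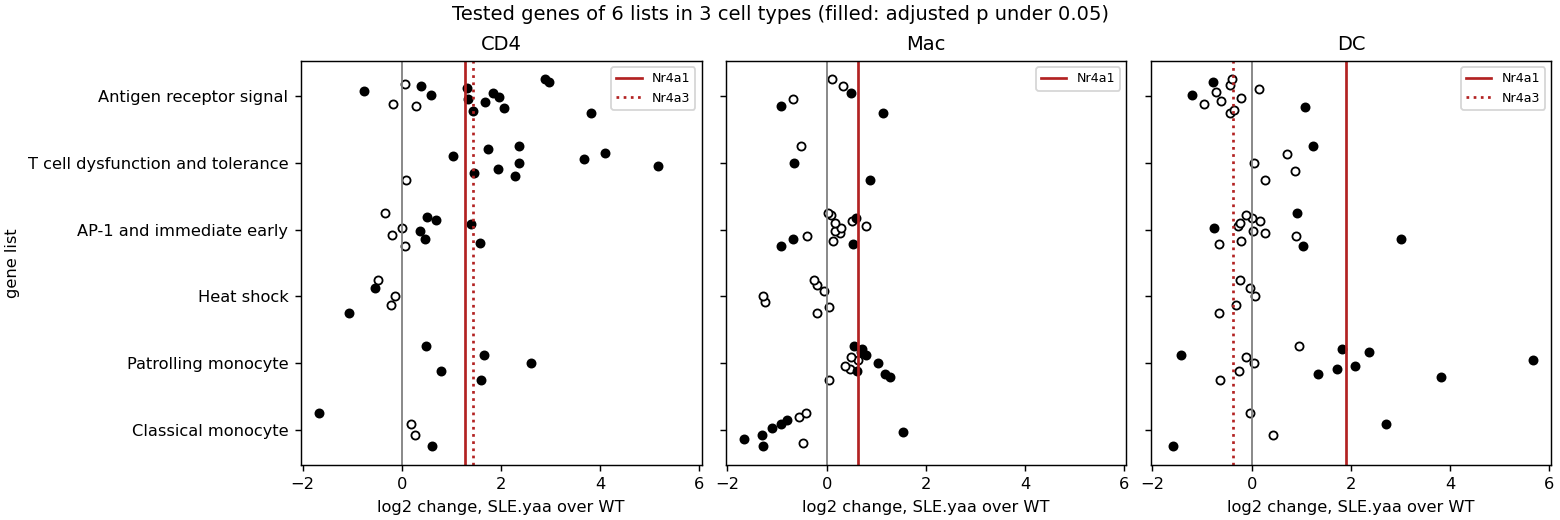
Log2 change, SLE.yaa over WT, of each tested gene of 6 lists in CD4 T cells, Mac and DC, with filled points past the threshold. Red lines mark Nr4a1 (solid) and Nr4a3 (dotted) where tested. In CD4 T cells 12 antigen receptor and 10 dysfunction genes lie to the right of 0 with filled points, and in Mac the patrolling genes lie right of 0 and most classical genes left of it.

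CD4 T cells with Pdcd1 at 1 or more made up 50.9% and 46.4% of the type in SLE.yaa mice and 3.76% and 4.20% in WT mice. Of 2816 CD4 T cells, 281 sat at exactly 1. Nr4a1 stood at 202 and 98.2 vpm in SLE.yaa mice and at 78.5 and 56.3 vpm in WT mice in the cells with Pdcd1, against 78.0 and 38.2 vpm, and 28.0 and 33.2 vpm, in the cells without it. It was higher with Pdcd1 in 4 of 4 mice, but few WT cells lay behind this. Among cells with Pdcd1, Nr4a1 was found in 4 of 30 in WT 1 and in 6 of 35 in WT 2. A single cell of WT 1 held 6 of a summed value of 9. With the highest cell of each mouse left out the order held in 4 of 4 mice. In WT 1 Nr4a1 was then at 27.1 vpm with Pdcd1 against 23.7 vpm without it. The log2 change within mice was 0.90 ± 0.16 (SE, limma adjusted p = 0.00916, with 3.73% of the tested genes called, 1.31% as higher and 2.42% as lower). This call was lost without the mouse as a block (adjusted p = 0.573), without SLE.yaa 1 (0.83, adjusted p = 0.0819) and among cells of 2000 to 6000 UMIs (0.72, adjusted p = 0.0642). The WT classes with Pdcd1 held 30 and 35 cells. Nr4a3 had a change of 0.66 (adjusted p = 0.103), or 0.30 among cells of 2000 to 6000 UMIs. In the same comparison the antigen receptor genes gave 5 higher and 0 lower of 14, with Tnfrsf9 (1.78), Tnfrsf4 (1.76) and Egr2 (1.20) the furthest.

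The SLE.yaa change was also measured inside these classes. Among CD4 T cells without Pdcd1, Nr4a3 was at 32.2 and 22.4 vpm in SLE.yaa mice and 7.18 and 8.78 vpm in WT mice, a log2 change of 1.04 ± 0.18 (SE, limma adjusted p = 0.00447, with 14.8% of the tested genes called). It entered only through the SLE.yaa mice, and had no value with one of them left out, but with no filter its adjusted p was 0.0394. Few cells lay behind it, 10 of 312 and 9 of 295 in SLE.yaa mice and 13 of 767 and 13 of 799 in WT mice, and 1 cell of SLE.yaa 1 held 29 of a summed value of 45. With the highest cell of each mouse left out, an alternative added after seeing the data, the levels were 11.5 and 15.8 vpm in SLE.yaa mice and 6.11 and 5.21 vpm in WT mice, and the call was lost (0.59, adjusted p = 0.0518). It was also lost without WT 1 (adjusted p = 0.0620) or WT 2 (adjusted p = 0.0773). Nr4a1 in the same cells had a change of 0.69 (adjusted p = 0.0942), which was 0.25 (adjusted p = 0.258) without SLE.yaa 1 and 1.12 (adjusted p = 1.16e-05) without SLE.yaa 2. Among cells with Pdcd1, Nr4a3 was at 66.7 and 50.6 vpm in SLE.yaa mice and 17.5 and 21.1 vpm in WT mice (1.22, adjusted p = 0.149), and Nr4a1 changed by 0.98 (adjusted p = 0.281), with 0.480% of the tested genes called. Without WT 1 both passed, at 1.13 (adjusted p = 0.000218) and 1.19 (adjusted p = 2.88e-06), and without WT 2 both passed, at 1.32 (adjusted p = 1.26e-05) and 0.79 (adjusted p = 0.00236). Leaving out SLE.yaa 1 or SLE.yaa 2 gave 0.52 or 1.48 for Nr4a1, neither past the threshold. Nr4a2 was at 36.6 and 17.2 vpm in SLE.yaa mice and 17.5 and 7.04 vpm in WT mice (0.72, adjusted p = 0.497, or 1.06 and adjusted p = 0.00184 without WT 1). By values, Nr4a3 was higher in both SLE.yaa mice than in both WT mice on each side of the Pdcd1 cut.

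In mice, regulatory T cells depend on Nr4a receptors for Foxp3, their lineage factor. Cells with Foxp3 at 1 or more were 22.2% and 20.9% of CD4 T cells in SLE.yaa mice and 8.53% and 8.03% in WT mice, and 125 of 2816 sat at exactly 1. In them Nr4a3 reached 125 and 69.9 vpm in SLE.yaa mice, against 24.9 and 3.85 vpm in WT mice. Those levels came from 14 of 141 and 9 of 115 cells in SLE.yaa mice and from 3 of 68 and 1 of 67 cells in WT mice. A single cell of SLE.yaa 1 held 29 of a summed value of 77. With the highest cell of each mouse left out the levels were 78.2 and 47.0 vpm in SLE.yaa mice and 12.7 and 0 vpm in WT mice. The log2 change was 2.24 ± 0.40 (SE, limma adjusted p = 0.00172, with 3.78% of the tested genes called), and it was 2.24 (adjusted p = 0.00253) with the highest cells left out, 2.24 (adjusted p = 0.0235) with no filter and 2.25 (adjusted p = 0.182) with Foxp3 at 2 or more. The value was 2.92 without WT 1 and 1.57 without WT 2. Nr4a1 in these cells was at 218 and 65.7 vpm in SLE.yaa mice and 66.5 and 11.5 vpm in WT mice, overlapping between the groups. Its change of 1.70 (adjusted p = 0.0457) was lost without SLE.yaa 1 (0.91, adjusted p = 0.532) and without WT 2 (0.78, adjusted p = 0.0811), and was 2.62 without WT 1. It was also lost with no filter on low values (adjusted p = 0.201), on the sum alone (adjusted p = 0.132), with a pseudocount of 1 (adjusted p = 0.179) and with Foxp3 at 2 or more (adjusted p = 0.402). Nr4a2 was at 27.5 and 25.4 vpm in SLE.yaa mice and 8.31 and 3.85 vpm in WT mice (1.19, adjusted p = 0.0910), and it was tested only through the SLE.yaa mice. It passed without WT 1 (1.41, adjusted p = 0.0160) and without the highest cells (1.48, adjusted p = 0.0283), and with no filter its adjusted p was 0.209.

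The cells without Foxp3 were tested in the same way. There Nr4a1 was at 113 and 62.7 vpm in SLE.yaa mice and 27.1 and 36.8 vpm in WT mice (1.18, limma adjusted p = 0.00113), and Nr4a3 at 26.9 and 24.6 vpm in SLE.yaa mice and 6.11 and 9.97 vpm in WT mice (0.99, adjusted p = 0.000540), with 26.8% of the tested genes called. Nr4a3 entered only through the SLE.yaa mice, and with no filter its adjusted p was 0.00723. Within mice, Nr4a3 had a change of 0.85 (adjusted p = 0.132, with 5.72% of the tested genes called) between the cells with Foxp3 and those without, or 1.32 (adjusted p = 0.00855) without WT 2 and 0.54 without SLE.yaa 1. Nr4a1 had one of 0.13 (adjusted p = 0.849), which changed sign without SLE.yaa 1 (−0.09) and without WT 1 (−0.14).

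Clonal expansion was read from the T cell receptor. Cells whose receptor was found once in the mouse were 67.0% and 69.0% of the CD4 T cells with a receptor in SLE.yaa mice and 95.9% and 98.7% in WT mice. In these unexpanded cells all 3 members were higher in both SLE.yaa mice than in both WT mice. Nr4a1 was at 156 and 76.5 vpm in SLE.yaa mice and 34.5 and 36.5 vpm in WT mice (1.40, limma adjusted p = 0.00108, or 0.92 without SLE.yaa 1). Nr4a2 was at 20.1 and 10.0 vpm in SLE.yaa mice and 2.43 and 1.29 vpm in WT mice (1.05, adjusted p = 0.00385), and it passed the minimum only through the SLE.yaa mice. With no filter its adjusted p was 0.0211. Nr4a3 was at 62.6 and 33.7 vpm in SLE.yaa mice and 7.29 and 10.3 vpm in WT mice (1.59, adjusted p = 0.000316, or 0.00902 with no filter). Called genes were 21.1% of those tested. In expanded CD4 T cells of SLE.yaa mice (176 and 116 cells) Nr4a1 was at 128 and 71.1 vpm and Nr4a3 at 39.6 and 31.4 vpm, against 156 and 76.5 vpm, and 62.6 and 33.7 vpm, in the unexpanded cells of the same mice. Expanded cells were scaled to their sum alone and unexpanded cells also by TMM factors, so these levels are not on the same scale. A single unexpanded cell of SLE.yaa 1 held 29 of a summed Nr4a3 value of 103. Leaving out the highest cell of each mouse put Nr4a3 in unexpanded SLE.yaa cells at 45.1 and 26.5 vpm. The 24 and 8 expanded WT cells held Nr4a1 in 0 and 1 cell, which is too few for a test.

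CD8 T cells held little Nr4a1 or Nr4a3, and Nr4a2 was the most abundant member in SLE.yaa 1 but not in SLE.yaa 2. Nr4a2 was at 12.6 and 16.0 vpm in SLE.yaa mice and 2.20 and 4.61 vpm in WT mice, without overlap. It passed the minimum only through the SLE.yaa mice, and its log2 change of 0.86 ± 0.20 (SE, limma adjusted p = 0.0501, with 3.14% of the tested genes called, 2.49% as higher and 0.652% as lower) did not pass the threshold. It passed under 6 alternatives, all with the filter kept, the lowest p being among cells of 2000 to 6000 UMIs (1.29, adjusted p = 0.00235). With no filter on low values it did not pass. It was found in 3.44% and 5.03% of CD8 T cells in SLE.yaa mice and in 0.893% and 1.23% in WT mice, with median UMI counts of 6189 and 4270 in SLE.yaa mice and 5355.5 and 5720 in WT mice. Markers of other cells moved with it. In CD8 T cells Cd4 stood at 29.1 and 53.1 vpm in SLE.yaa mice and at 5.07 and 5.68 vpm in WT mice, plasma cell markers summed to 411 and 109 vpm and to 10.7 and 14.4 vpm, and macrophage markers to 9.22 and 49.7 vpm and to 0 in both WT mice. CD4 T cells also held Nr4a2, and the part of these cells was not tested. In B cells Nr4a2 was found in 0.0406% and 0.0815% of cells in SLE.yaa mice and in 0.0320% and 0% in WT mice.

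Ccl5, a chemokine of effector and memory cells, was at 1 or more in 55.3% and 89.1% of CD8 T cells in SLE.yaa mice and 30.6% and 33.9% in WT mice. In those cells Nr4a2 was at 16.9 and 17.9 vpm in SLE.yaa mice and 7.05 and 13.2 vpm in WT mice, a log2 change of 0.46 (limma adjusted p = 0.430, with 4.66% of the tested genes called). In the cells without Ccl5 it was at 7.76 and 5.70 vpm in SLE.yaa mice, from only 2 of 130 and 1 of 37 cells. Leaving out the highest cell of each mouse brought those levels to 1.56 and 0 vpm. It was at 0 in both WT mice, from 0 of 311 and 0 of 376 cells. By a limit of 3 counts this allows shares of cells with the transcript detected of up to 0.965% and 0.798%. Among CD8 T cells whose receptor was found once, Nr4a2 was at 11.0 and 21.6 vpm in SLE.yaa mice and 2.37 and 1.25 vpm in WT mice (1.13, limma adjusted p = 0.107, with 1.29% of the tested genes called). There too Nr4a2 entered only through the SLE.yaa mice, and it passed under none of its 7 alternatives, no filter included. Nr4a1 in CD8 T cells, at 4.90 and 19.7 vpm in SLE.yaa mice and 6.59 and 7.12 vpm in WT mice, was below the minimum. It was found in 1.72% and 3.85% of cells in SLE.yaa mice and 2.68% and 1.93% in WT mice. For comparison, early B cells held Nr4a1 in 3% and 0% of cells in SLE.yaa mice and in 1.15% and 1.23% in WT mice, so no difference is read from the CD8 shares. With Ccl5 against without it, within mice, Nr4a1 had a change of 0.42 (adjusted p = 0.346, with 5.65% of the tested genes called). Dysfunction genes still rose in CD8 T cells, at 6 of 9 tested, led by Lag3 (3.23), Tigit (2.74) and Pdcd1 (2.18). Over all genes 2.49% rose and 0.652% fell in this type. Cd4 was higher in SLE.yaa CD8 T cells, as given above, and the part of CD4 T cells in these changes was not tested.

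B cells, the largest type, showed no detectable Nr4a1 difference. Levels were 35.8 and 26.0 vpm in SLE.yaa mice and 34.2 and 28.2 vpm in WT mice, so the groups overlapped. The log2 change was −0.02 ± 0.13 (SE, limma adjusted p = 0.974, with 4.1% of the tested genes called, 2.98% as higher and 1.12% as lower), and its sign was not stable, at 0.20 (adjusted p = 0.359) without scaling. Nr4a1 was found in 6.61% and 5.87% of B cells in SLE.yaa mice and 7.22% and 5.58% in WT mice. Of 10 antigen receptor genes tested in B cells 2 rose, Cd83 (0.69) and Cd69 (0.65), and 2 fell, Irf4 (−0.59) and Nfkbid (−0.50), with a median of −0.10 against −0.01 over all genes tested. Among B cells with an IgM or IgD heavy chain the Nr4a1 change was −0.09 (adjusted p = 0.899, with 3.76% of the tested genes called). Switched B cells numbered 49 and 76 in SLE.yaa mice and 14 and 6 in WT mice, and Nr4a1 was found in 1 and 0 of them in SLE.yaa mice and in 1 and 0 in WT mice. In PMN, Nr4a1 was at 103 and 136 vpm in SLE.yaa mice and 65.5 and 67.2 vpm in WT mice, without overlap, and its change of 0.75 ± 0.23 (SE, adjusted p = 0.135, with 1.92% of the tested genes called) did not pass. Among PMN of 2000 to 6000 UMIs the change was 1.49, also not past the threshold. In NK and B-ISG cells the Nr4a1 changes were −0.08 (adjusted p = 0.980) and 0.14 (adjusted p = 0.973), from 4 or fewer positive cells in each SLE.yaa mouse, with 0.0967% and 0.880% of the tested genes called.

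**Figure D5:**
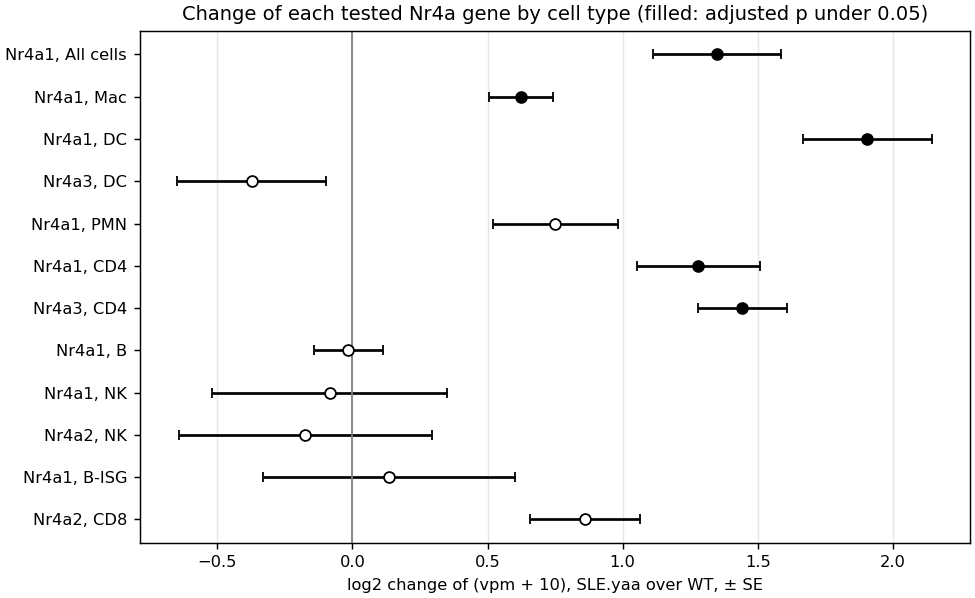
Log2 change of vpm plus 10, SLE.yaa over WT, with its standard error, for each Nr4a gene that passed the filter, by cell type (n = 2 mice per group). Filled points have a limma adjusted p under 0.05. Nr4a1 in all cells, Mac, DC and CD4 T cells and Nr4a3 in CD4 T cells are filled, and Nr4a1 in B cells lies at −0.02.

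The differences between cell types were tested on the differences within mice, in 9 tests over 5 pairs of types, each adjusted over all genes. Nr4a1 changed more in CD4 T cells than in B cells, by 1.30 ± 0.20 on the log2 scale (SE, limma adjusted p = 0.00149, with 29.1% of the tested genes called). Nr4a3 changed more in CD4 T cells than in B cells by 1.29 ± 0.16 (adjusted p = 0.000449), and more than in CD8 T cells by 1.87 ± 0.21 (adjusted p = 0.000836, with 9.48% called). Nr4a3 reached the minimum in these types only in CD4 T cells of SLE.yaa mice. With no filter its adjusted p was 0.0387 against B cells and 0.0459 against CD8 T cells, and that of Nr4a1 in CD4 minus B cells was 0.0673, no longer past the threshold. CD8 T cells held Nr4a3 at 2.10 and 2.18 vpm in SLE.yaa mice and at 3.85 and 9.22 vpm in WT mice. The change of Nr4a3 in Mac minus that in CD4 T cells was −1.30 ± 0.23 (adjusted p = 0.00720, with 17.8% called), and the call was lost with a pseudocount of 1 (−1.15, adjusted p = 0.266) and with no filter (adjusted p = 0.0597). The other tests did not pass. Nr4a1 gave 0.64 for Mac minus B cells (adjusted p = 0.0896, with 5.94% called), −0.66 for Mac minus CD4 T cells (adjusted p = 0.192), 0.96 for CD4 minus CD8 T cells (adjusted p = 0.313) and −0.13 for Mac minus PMN (adjusted p = 0.886, with 0.928% called). Nr4a2 gave 0.18 for CD4 minus CD8 T cells (adjusted p = 0.754). Some of these Nr4a1 values rested on single mice. CD4 minus CD8 was −0.03 with SLE.yaa 1 left out and 1.96 (adjusted p = 0.00415) with SLE.yaa 2 left out. For Mac minus CD4 the values were −0.16 and −1.15 (adjusted p = 0.0366), and Mac minus B cells reached 0.81 (adjusted p = 0.0235) with SLE.yaa 1 left out.

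The genes whose levels followed each receptor most closely were taken over 36 points, 9 types in 4 mice, from 10053 genes. These correlations are descriptions, since the points share mice and cell types. Nr4a1 was followed by Treml4 (r = 0.909), a receptor of patrolling monocytes, by Gm36161 (0.909), by Cebpb (0.907), a myeloid transcription factor, by Rin2 (0.904) and by Gm21188 (0.901). All of them were highest in Mac by the mean over the 4 mice. In single mice PMN stood above Mac for Rin2 (40.4 against 34.4 vpm in SLE.yaa 2) and for Cebpb (2124 against 1891 vpm in WT 2). Treml4 stood at 355 and 339 vpm in SLE.yaa Mac and 240 and 228 vpm in WT Mac on the scale shared by all types. Nr4a2, which reached 10 vpm at only 5 of the 36 points, was followed by Paqr4 (0.926), the calcium pump Atp2b4 (0.882), Arhgap10 (0.864), the interferon gene Ifng (0.862) and the cystatin Cst7 (0.861), each at its highest in a T or NK cell point. Nr4a3, which reached it at 7 points, was followed by Rtl8c (0.827), Tbc1d4 (0.813), Abi2 (0.807) and Trpm4 (0.788). Tbc1d4 was high in SLE.yaa CD4 T cells (266 and 356 vpm, against 46.6 and 35.9 vpm in WT CD4 T cells) and in DC (98.5 and 159 vpm in SLE.yaa mice, 414 and 392 vpm in WT mice), the pair of types that also led for Nr4a3.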

How the data were processed

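Spleen cells of 2 SLE.yaa and 2 WT mice were measured, each in an expression library and in libraries of the receptors of B and of T cells. Per the submitters' processing notes, Cell Ranger 5.0.0 and Seurat 4.0.0 were used with GRCm38 (mm10), and the steps and filters, doublets included, are not given in the sources used here. As deposited, the expression table holds ln(1 + x), where ln is the natural log and x is a whole number per gene and cell that the authors adjusted for depth by a method not given. The deposited cell table gives UMI counts, the percent of UMIs in mitochondrial genes and a heat shock score per cell as the authors computed them. Receptor tables give deposited counts of UMIs per heavy chain and of cells per clone, matched to cells by barcode. Rows with no gene name (15, with 0.0440% of all values) were dropped.

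The values x were averaged per mouse and authors' cell type, scaled to 1000000 and by TMM factors (edgeR 4.0.16), and taken as log2(value + 10), so changes of low genes are understated. Genes with at least 10 in at least 2 mice were fitted with limma 3.58.1 (trend, two-sided) in R 4.3.3, and adjusted p is Benjamini-Hochberg over all genes tested, with a threshold of 0.05. Contrasts within mice carried the mouse as a block. The script was tested on simulated data. Shares have exact Clopper-Pearson 95% intervals, with limits for a count of 0 set at 3 counts, and were also drawn down to a total of 2500 per cell. The mice are separate animals of each group. With 2 mice against 2, an exact permutation test of a single value cannot reach the threshold.

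The 3 genes, the gene lists, the class cuts and the tests were chosen with earlier results of these data known. From each list described in a comparison, up to 3 genes with the largest absolute change among those past the threshold are named. Myc, Nfkbid, Ccr2, Btg2 and Pglyrp1, and the cell type markers given with values, were chosen after their values were seen. The likeness rule took the 5 genes with the highest Pearson r, of which 1 is not reported here. Alternatives varied the scaling, pseudocount, filter, variance, depth window, class cut and mice. The groups were read from a label field named chimera condition, which matches the strain, and what chimera means is not stated.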

Additional observations from a re-analysis of the deposited data

Results flagged for a closer look

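The change in SLE.yaa mice differed between cell types in 4 of the 9 tests of Nr4a genes, by limma tests of the difference itself over the 4 mice. Such calls were common over all tested genes, at 29.1% for CD4 minus B cells, 17.8% for Mac minus CD4 and 9.48% for CD4 minus CD8. For Mac minus B cells and Mac minus PMN they were 5.94% and 0.928%. Nr4a1 changed by 1.30 more on the log2 scale in CD4 T cells than in B cells. For Nr4a3, the change in CD4 T cells exceeded that in B cells by 1.29 and that in CD8 T cells by 1.87. The change of Nr4a3 in Mac minus that in CD4 T cells was −1.30. In Mac, Nr4a3 stood at 0.451 and 1.63 vpm in SLE.yaa mice and at 0 in both WT mice. Nr4a3 reached the minimum for the test in these types only in CD4 T cells of SLE.yaa mice. With no filter on low values the Nr4a1 difference and the Mac difference were no longer past the threshold (adjusted p = 0.0673 and 0.0597).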

How the results depend on the processing

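Of 466 values computed under alternatives for 48 results, 398 kept their direction and their side of the threshold, 24 lost the call, 23 gained one and 21 changed sign. Nr4a1 in DC kept its call under all 14 of its alternatives and Nr4a3 in CD4 T cells under all 12 that gave a value. All values here are log2 changes, and the cause of each shift was not tested.

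Without a filter on low values Nr4a1 lost its call in all cells (1.35) and in Mac (0.62), and, added after seeing the data, in CD4 T cells with Foxp3 (1.70), in CD4 minus B cells (1.30) and, for Nr4a3, in Mac minus CD4 T cells (−1.30). Without the highest cell of each mouse, also added later for CD4 and CD8 T cells, Nr4a3 in CD4 T cells without Pdcd1 lost its call (0.59) and Nr4a2 in those with Foxp3 gained one (1.48). Robust variance ended the call of Nr4a1 in all cells (1.35) and CD4 T cells (1.28), and gave one to Nr4a2 in CD8 T cells (0.86). Leaving out Mac, DC, PMN and plasma cells, chosen after seeing the data, gave 0.40 in all cells. With no filter on low values Nr4a2 in CD8 T cells gained no call. With the filter kept it also gained a call on the sum alone (0.82), with upper-quartile factors (0.88), unscaled (0.90), on the mean of ln values (0.040) and among cells of 2000 to 6000 UMIs (1.29). In that window Nr4a1 lost its call in Mac (0.39) and between the Pdcd1 classes (0.72), and the Nr4a2 difference of CD4 and CD8 T cells changed sign (−0.29). Signs also turned for Nr4a1 in B cells (0.20 unscaled, 0.0044 on the mean of ln), in NK cells (0.014 and 0.019) and in CD8 T cells with Ccl5 (−0.057 on the sum alone, −0.013 with a pseudocount of 1), for Nr4a2 in NK cells (0.0096 on the mean of ln) and for Nr4a1 in Mac minus PMN (0.038 with a pseudocount of 50). In CD4 T cells with Foxp3, Nr4a1 lost its call on the sum alone (1.70), with a pseudocount of 1 (2.06) and with the cut at 2 (1.79), and Nr4a3 with the cut at 2 (2.25). A pseudocount of 50 gave calls to Nr4a1 in Mac minus B cells (0.58) and in CD4 minus CD8 T cells (0.69), and a pseudocount of 1 ended that of Nr4a3 in Mac minus CD4 T cells (−1.15). Between the Pdcd1 classes Nr4a3 gained a call on the sum alone (0.79), and Nr4a1 lost it without the mouse block (0.90).

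With each mouse left out in turn, Nr4a1 ranged from −0.19 to 0.16 in B cells, −0.37 to 0.63 in B-ISG cells, −0.54 to 0.36 in NK cells, 0.53 to 0.71 in Mac, 0.11 to 0.42 in Mac with Ly6c2 at 0, 0.50 to 0.75 with Ly6c2, −0.40 to 0.22 in IgM or IgD B cells and −0.41 to 0.48 in CD8 T cells with Ccl5. In CD4 T cells it ranged from 0.78 to 2.62 with Foxp3, 0.52 to 1.48 with Pdcd1 and 0.25 to 1.12 without Pdcd1. Its differences ranged from 0.47 to 0.81 (Mac minus B), −1.15 to −0.16 (Mac minus CD4), −0.035 to 1.96 (CD4 minus CD8) and −0.33 to 0.062 (Mac minus PMN), and between classes from −0.14 to 0.58 (Foxp3) and 0.83 to 1.04 (Pdcd1). Nr4a2 ranged from −0.66 to 0.30 in NK cells, 0.99 to 1.41 with Foxp3 and 0.34 to 1.12 with Pdcd1. Nr4a3 ranged from 1.07 to 1.40 with Pdcd1, 0.98 to 1.11 without it and 0.54 to 1.32 between the Foxp3 classes.

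Counts of called genes moved more: 83 to 1646 in Mac (449 in the reported fit), 336 to 2076 in DC (1073), 1260 to 2620 in CD4 T cells (2371), 273 to 1757 in all cells (671), 1 to 369 between the Pdcd1 classes (307), 28 to 504 between the Foxp3 classes (471), 0 to 431 in PMN (125), 0 to 1451 in Mac minus B cells (525), 1 to 2654 in CD4 T cells with Pdcd1 (41), 250 to 2216 in those without (1227), 12 to 591 in those with Foxp3 (320), 10 to 1735 in Mac with Ly6c2 at 0 (85), 19 to 1755 in CD8 T cells (260) and 51 to 1600 in CD8 T cells of clones of 1 (107). The printed shares of called genes therefore depend on the setting and the mice. On the sum alone Mac had 167 higher and 258 lower calls, against 309 and 140 as reported, DC 594 and 493 against 740 and 333, and the Ly6c2 classes 738 and 1892 against 1286 and 947. Unscaled, CD4 T cells had 2056 and 485 against 1338 and 1033. No paired analysis was possible because the replicate numbers were given in record order and pair no mice. The depth window was not run for the Ccl5 classes, which held too few cells.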
